A study of Saccharomyces cerevisiae with 9 samples.

Results

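Aminoacyl-tRNA synthetases join each amino acid to its tRNA and so supply the ribosome with charged tRNAs. Yeast keeps separate sets of nuclear genes for these enzymes: the cytosolic enzymes serve the bulk of protein synthesis, while the mitochondrial enzymes are imported and serve the small organellar ribosome, whose main products are membrane subunits of the respiratory chain. Some genes supply both compartments, from alternative starts of transcription or translation. Uncharged tRNA, which builds up when charging falls behind, is sensed by the kinase Gcn2.

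The members were 33 listed genes of this kind, 20 assigned to the cytosolic side and 13 to the mitochondrial side. Each was looked up through the gene identifier of the array annotation. The table held a probe set for 32 of them, 20 cytosolic and 12 mitochondrial, among 5311 genes tested. DIA4, which encodes the mitochondrial seryl enzyme, is not analysed here. Each of the 32 had 1 probe set, and none of these carries the name ending that marks probes shared between sequences. On the cytosolic side 14 genes encode enzymes or enzyme subunits of the cytosol, although the glutamyl enzyme of GUS1, 1 of these, is known to enter mitochondria as well. The other 6 are ALA1, VAS1, HTS1 and GRS1, which each supply both compartments, GRS2, the paralog of GRS1, and ARC1, a tRNA-binding cofactor that holds the methionyl and glutamyl enzymes in a complex.

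The study measured total RNA of the sporulation-proficient strain SK1 on 9 Affymetrix arrays, as RMA intensities. The groups were wild type (WT) growing in the glucose medium YPD (2 arrays), WT moved for 4 h into sporulation medium with 1% potassium acetate, called SPO (3 arrays), and ime4-/- cells, called ime4, in YPD (2 arrays) and in SPO (2 arrays). IME4 encodes the mRNA N6-adenosine methyltransferase. All groups share the SK1 background, the series text calls the arrays biological replicates, while the labels state neither ploidy nor mating type nor how much of IME4 was deleted.

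The IME4 probe set read 5.35 and 5.35 log2 in WT in YPD and 7.14, 7.13 and 7.10 in WT in SPO, and it was under the background level of 3.02 to 3.27 on all 4 ime4 arrays (2.14 to 2.54). The HMRA1 probe set of the a1 mating-type transcript read at least 8.03 on every WT array and at most 3.28 on every ime4 array, and the HMLALPHA1 probe set of alpha1 at most 4.21 and at least 7.68. The genotype and these mating-type patterns cannot be told apart, which holds for every comparison of ime4 with WT. Replicate arrays differed by a median of 0.0532 to 0.0679 log2 over the tested probe sets and of 0.047 to 0.0616 over the members. The number of arrays limits the precision. A gene is said to rise, fall or differ below where its limma p, adjusted over all 5359 tested probe sets by Benjamini and Hochberg, was under 0.05.

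The first comparison asks how the transcripts of WT cells differed between YPD and 4 h in SPO. The design does not separate the carbon source from other differences between these conditions. On the cytosolic side 19 of 20 genes fell and 1 rose, with a median log2 difference of -1.95. On the mitochondrial side 10 of 12 fell and 2 did not pass, with a median of -0.95. Over all tested probe sets 43.1% fell and 46.9% rose, and the median was 0.05. Falls of at least 2-fold were called for 17 cytosolic genes, for 6 mitochondrial genes and for 21.1% of all probe sets. The 14 genes for enzymes of the cytosol all fell, with a median of -2.11. MSM1 (-0.30) did not pass without WT replicate 1 in YPD (-0.24, adjusted p = 0.0929).

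WRS1, which encodes the cytosolic tryptophanyl enzyme, had the largest fall among the members. It read 9.84 and 9.86 log2 in WT in YPD and 7.03, 6.98 and 6.95 in SPO, a 7.27-fold fall (log2 -2.86, SE 0.047, adjusted p = 1.27e-11). Of the subunits of the cytosolic phenylalanyl enzyme, FRS1 fell by 2.67 and FRS2 fell by 2.52. The seryl gene SES1 fell 5.45-fold, from 11.34 and 11.50 to 8.95, 8.99 and 8.98. The asparaginyl gene DED81 fell 5.06-fold, and the groups were far apart, with a lowest YPD value of 11.12 and a highest SPO value of 8.86.

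KRS1, the cytosolic lysyl gene, was measured by a dim probe set. Its values were 5.65 and 5.40 in WT in YPD and 3.05, 2.93 and 3.10 in SPO, where only 1 of 3 arrays lay above background. The fall of 2.49 log2 is therefore uncertain in size, and with an offset of 16 intensity units the difference was -1.36. In each of the other groups KRS1 lay above background on every array.

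The genes of the complex of ARC1, MES1 and GUS1 all fell in WT. The methionyl gene MES1 fell 5.87-fold, from 10.79 and 10.78 to 8.15, 8.27 and 8.27, and ARC1 fell 4.52-fold, from 11.05 and 11.05 to 8.87, 8.88 and 8.86. The glutamyl gene GUS1 fell 1.89-fold, from 11.44 and 11.43 to 10.61, 10.46 and 10.48. The differences between these 3 falls were not tested. Among the other cytosolic enzymes, the threonyl gene THS1 fell by 1.88, the glutaminyl gene GLN4 by 1.84 and the tyrosyl gene TYS1 by 1.77. The falls of CDC60, whose leucyl enzyme also senses leucine for the TORC1 kinase, and of the isoleucyl gene ILS1 were smaller (1.40 and 1.21). The aspartyl gene DPS1 fell by 0.90, the smallest fall on this side.

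The 4 genes that supply both compartments all fell, where 43.1% of all tested probe sets fell. The valyl gene VAS1 dropped by 2.09 and the glycyl gene GRS1 by 2.02, the alanyl gene ALA1 by 1.06 and the histidyl gene HTS1 by 1.01. Their median of -1.54 lay between the medians of the 14 genes for cytosolic enzymes and of the mitochondrial side. None of the 4 genes had a value near that median. GRS2 went the other way from its paralog. It read 7.18 and 7.0 in WT in YPD and 8.04, 7.98 and 8.09 in SPO, a 1.93-fold rise (log2 0.95, SE 0.061, adjusted p = 1.75e-07). Over the same arrays GRS1 read 11.44 and 11.42, then 9.40, 9.43 and 9.42. In neither gene did the YPD and SPO values overlap, as for most tested probe sets in WT (2584 higher and 2375 lower of 5359). GRS2 was the only member that rose in WT.

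**Figure D1:**
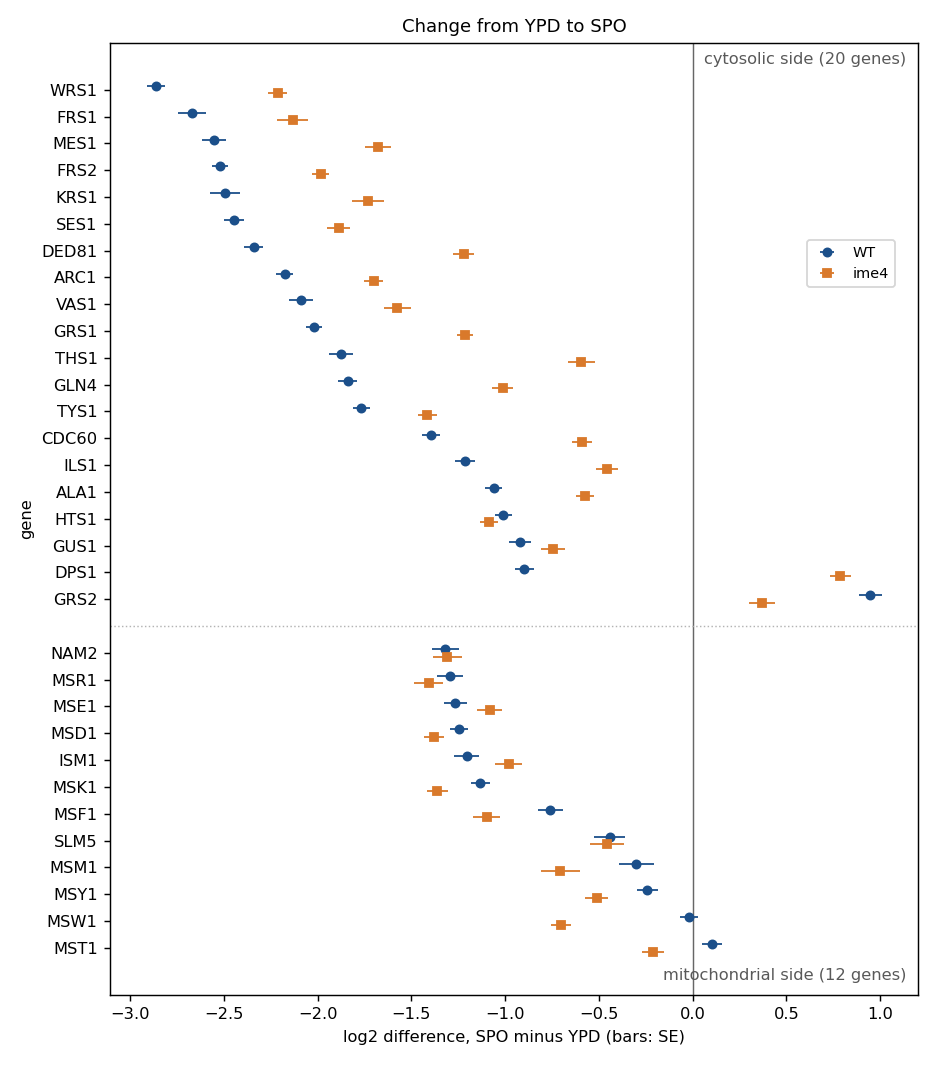
Log2 difference between SPO and YPD for the 20 cytosolic and 12 mitochondrial genes, in WT (circles) and ime4 (squares), with bars for the SE of the limma fit. In WT the cytosolic genes other than GRS2 lie between -2.86 and -0.90 and the mitochondrial genes between -1.32 and 0.10. In ime4 most cytosolic points shift toward 0.

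On the mitochondrial side the falls reached 1.32 at most. NAM2, which encodes the leucyl enzyme and is also needed for splicing of mitochondrial introns, read 7.52 and 7.57 in WT in YPD and 6.09, 6.36 and 6.22 in SPO, a 2.50-fold fall (adjusted p = 4.73e-08). The arginyl gene MSR1 fell by 1.29, the glutamyl gene MSE1 by 1.27, the aspartyl gene MSD1 by 1.25 and the isoleucyl gene ISM1 by 1.20. The lysyl gene MSK1 fell by 1.13. These 6 genes were the ones that fell at least 2-fold.

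The other mitochondrial genes moved less. The phenylalanyl gene MSF1 fell by 0.76, the asparaginyl gene SLM5 by 0.44, the methionyl gene MSM1 by 0.30 and the tyrosyl gene MSY1 by 0.24. The tryptophanyl gene MSW1 read 7.50 and 7.56 in YPD and 7.51, 7.54 and 7.48 in SPO, and its difference of -0.02 did not pass (95% interval -0.133 to 0.094). MSW1 did pass with quantile normalization (adjusted p = 0.0434) and with each array centred on its median (adjusted p = 0.0454), at up to -0.12. The threonyl gene MST1 read 7.12 and 7.10, then 7.25, 7.15 and 7.23, and did not pass either (log2 0.10, 95% interval -0.019 to 0.224).

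The probe sets of both sides also differ in brightness. In WT in YPD the cytosolic genes other than KRS1 and GRS2 read 9.79 to 11.81 log2 and the mitochondrial genes 7.04 to 8.93. The part of probe brightness in the unequal falls was not tested. Signals of different probe sets are not levels that can be ranked against each other, and only differences between groups are compared here.

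Among the members alone, enzymes for the same amino acid were set side by side in 12 pairs for 11 amino acids, since the phenylalanyl enzyme of the cytosol has 2 subunits. In WT the cytosolic gene had the more negative response in 10 of 12 pairs, with a median gap of -1.64 log2. The gaps were given no test. The widest was for tryptophan, where WRS1 changed by -2.86 and MSW1 by -0.02. For methionine, MES1 changed by -2.55 and MSM1 by -0.30, and for threonine THS1 by -1.88 and MST1 by 0.10. For isoleucine the responses were nearly the same, at -1.21 for ILS1 and -1.20 for ISM1, and for leucine CDC60 stood at -1.40 and NAM2 at -1.32. For glutamate and aspartate the mitochondrial gene had the more negative value: MSE1 at -1.27 against -0.92 for GUS1, and MSD1 at -1.25 against -0.90 for DPS1.

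**Figure D2:**
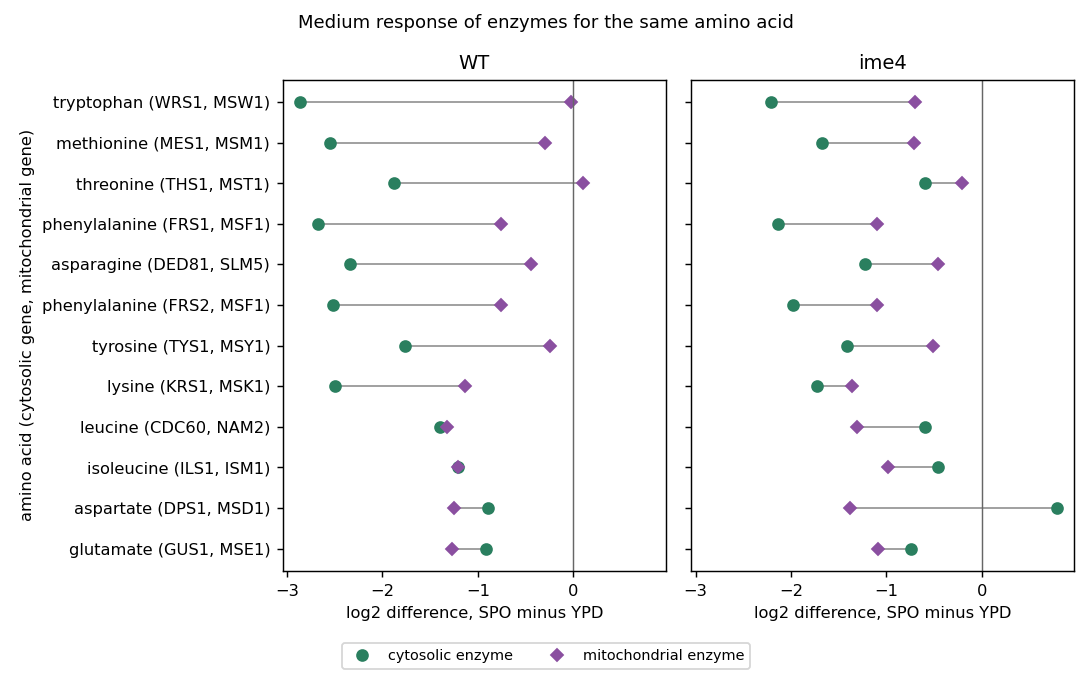
Log2 difference between SPO and YPD of the cytosolic (circles) and mitochondrial (diamonds) enzyme for the same amino acid, joined by a line, in WT and in ime4. The tryptophan pair spans -2.86 to -0.02 in WT, while the isoleucine pair nearly coincides at -1.21 and -1.20. In ime4 the cytosolic aspartyl gene DPS1 lies at 0.79, apart from every other point.

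The same move of medium was then examined in ime4 cells. On the cytosolic side 18 of 20 genes fell and 2 rose, with a median of -1.22. On the mitochondrial side all 12 fell, with a median of -1.03. Over all tested probe sets 42% fell and 44% rose, with a median of 0.04. Falls of at least 2-fold were called for 13 cytosolic and 6 mitochondrial genes, against 16.2% of all probe sets. WRS1 again had the largest fall, from 9.86 and 9.82 to 7.67 and 7.58 (4.64-fold, adjusted p = 2.73e-10), followed by FRS1 (2.13) and FRS2 (1.98). MSR1 had the largest mitochondrial fall (1.41), and MST1 the smallest (0.21), which did not pass without ime4 replicate 1 in YPD (adjusted p = 0.0692). MSW1, which had not passed in WT, fell by 0.70, from 7.79 and 7.74 to 7.01 and 7.12.

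The members that rose in ime4 were GRS2, by 0.37, and DPS1. DPS1 read 10.56 and 10.50 in WT in YPD and 9.60, 9.67 and 9.62 in WT in SPO. In ime4 it read 10.18 and 10.07 in YPD and 10.91 and 10.92 in SPO. The gene thus fell in WT (log2 -0.90, SE 0.050, adjusted p = 5.63e-08) and rose in ime4 (0.79, SE 0.055, adjusted p = 4.32e-07). Its YPD and SPO values did not overlap in either genotype. This was common, at 2584 higher and 2375 lower of 5359 tested probe sets in WT and 2571 and 2426 in ime4. No other member had called responses of opposite sign in the genotypes.

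**Figure D3:**
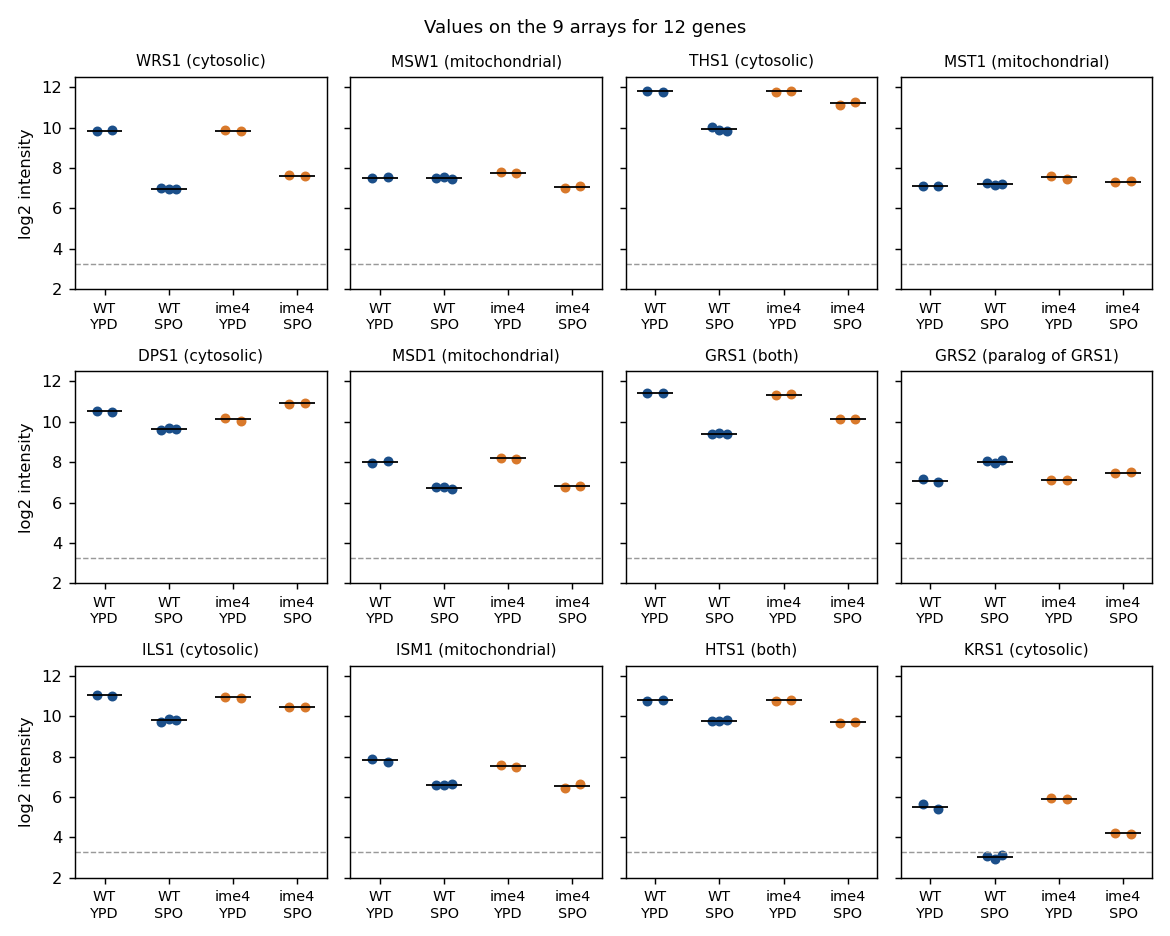
Log2 intensity on each of the 9 arrays for 12 genes, with WT in blue and ime4 in orange, a black line at each group mean and a dashed line at the highest background level of any array (3.27). DPS1 is lower in SPO than in YPD in WT and higher in ime4, GRS1 and GRS2 move in opposite directions, and KRS1 reaches the background level in WT in SPO.

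Whether the response itself differed between the genotypes was tested by the genotype by medium interaction, which is the ime4 response minus the WT response. It shares its arrays with the other comparisons, so their values are not separate evidence. On the cytosolic side the interaction was positive and called for 17 of 20 genes, negative for 1 and not called for 2, with a median of 0.60. On the mitochondrial side it was negative for 6 of 12 genes, positive for none and not called for 6, with a median of -0.18. Over all tested probe sets 29.5% had a positive and 34.6% a negative call, and the median was -0.05. The count of 6 mitochondrial genes was unstable, as it ranged from 2 to 7 when any 1 array was left out, with the lowest count without ime4 replicate 1 in YPD, and was 3 with each array centred on its median.

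DPS1 had the largest interaction of the members, 1.69 (SE 0.074, adjusted p = 4.01e-07). THS1 followed at 1.28 (SE 0.096, adjusted p = 4.43e-06): it fell from 11.81 and 11.77 to 10.02, 9.88 and 9.85 in WT, and from 11.76 and 11.82 to 11.13 and 11.27 in ime4, so that its YPD values overlapped between the genotypes while its SPO values did not. In SPO the genotypes also did not overlap for most tested probe sets (2005 higher and 2350 lower of 5359). DED81 stood at 1.12, MES1 at 0.88 and GLN4 at 0.83. The fall of ILS1 was 2.32-fold in WT and 1.37-fold in ime4 (interaction 0.76, adjusted p = 4.04e-05). KRS1 also stood at 0.76, from a dim probe set, and did not pass with an offset of 16 intensity units (0.20, adjusted p = 0.0514).

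GUS1 and HTS1 were the cytosolic-side genes whose interaction did not pass. The GUS1 estimate was 0.18 (95% interval -0.023 to 0.375), and it passed in 4 of 16 alternative fits, among them with centred arrays (adjusted p = 0.0408) without WT replicate 1 in SPO (adjusted p = 0.0384) and without ime4 replicate 2 in SPO (adjusted p = 0.0476). HTS1 fell from 10.77 and 10.81 to 9.76, 9.76 and 9.82 in WT and from 10.76 and 10.80 to 9.68 and 9.71 in ime4, with an interaction of -0.08 (95% interval -0.224 to 0.073). GRS2 had the negative call (-0.58, adjusted p = 0.000429), since it rose less in ime4.

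Among the mitochondrial genes MSW1 had the largest interaction, -0.68 (SE 0.074, adjusted p = 4.36e-05), and it and MST1 (-0.31) passed in all 16 alternatives. MSF1, MSK1, MSM1 and MSY1 (-0.34, -0.23, -0.40 and -0.27) each failed in 2 to 7 of the alternatives. MSF1 failed without replicate 1 of ime4 in YPD (adjusted p = 0.0596) or in SPO (adjusted p = 0.0586), and MSY1 without replicate 1 of ime4 in YPD (0.0632) or with centred arrays (0.0596). MSK1 failed without replicate 2 of WT in YPD (0.0925), replicate 3 of WT in SPO (0.0528), either ime4 array in YPD (0.0564 and 0.0619) or replicate 2 of ime4 in SPO (0.0629), with centred arrays (0.0885) and with the replicate number as a block (0.0569). MSM1 failed without replicate 2 of WT in YPD (0.0944), replicates 1 or 3 of WT in SPO (0.0542 and 0.0566), either ime4 array in YPD (0.07 and 0.0654) or replicate 2 of ime4 in SPO (0.0605, at -0.22), and with centred arrays (0.0553). Some genes gained a call. ISM1 (0.22) had a positive one in 5 of 16 alternatives, among them without replicate 2 of WT in YPD (adjusted p = 0.0368) or replicate 1 of ime4 in SPO (0.0201), MSE1 (0.18) with centred arrays (0.0482), and MSR1 (-0.11) a negative one without replicate 1 of WT in YPD (0.0478). NAM2 and SLM5 had the estimates nearest to 0 (0.01 and -0.01). The median gap within pairs, cytosolic minus mitochondrial, was -0.57 in ime4 against -1.64 in WT, a difference given no test, and in ime4 the cytosolic gene had the more negative response in 8 of 12 pairs.

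In SPO, ime4 cells were next compared with WT cells. Of the cytosolic genes 17 of 20 were higher in ime4, 1 was lower and 2 did not pass, with a median of 0.60. Of the mitochondrial genes none of 12 was higher, 4 were lower and 8 did not pass, with a median of -0.08. Over all tested probe sets 34.1% were higher and 39.4% lower, with a median of -0.04. The count of lower mitochondrial genes is near the share of the whole array. The 17 higher and 5 lower calls passed in every alternative in which the gene was tested.

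THS1 and DPS1 had the largest differences. THS1 was 2.43-fold higher in ime4 (log2 1.28, SE 0.064, adjusted p = 1.97e-07), and DPS1 2.43-fold higher as well (log2 1.28, SE 0.050, adjusted p = 4.57e-08). KRS1 read 4.22 and 4.15 in ime4 against 3.05, 2.93 and 3.10 in WT, a 2.24-fold difference of uncertain size because 1 of 3 WT arrays lay above background, and with the offset its log2 difference was 0.50 in place of 1.16. DED81 was 2.08-fold higher. The others lay between 0.22 (FRS2) and 0.77 (CDC60), and GRS1 was 1.64-fold higher, at 10.12 and 10.12 against 9.40, 9.43 and 9.42.

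GRS2 was the lower gene of the cytosolic side, at 7.45 and 7.52 in ime4 against 8.04, 7.98 and 8.09 in WT (log2 -0.55, adjusted p = 2.89e-05). The 2 that did not pass were HTS1 (-0.08) and GUS1 (0.14). GUS1 was higher past the threshold in 7 of 16 alternatives, with adjusted p from 0.0157 (without WT replicate 1 in SPO) to 0.353 over all of them. HTS1 had a negative call only after quantile normalization (adjusted p = 0.0448).

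The 4 lower mitochondrial genes were MSY1 (-0.56), MSW1 (-0.45), MSF1 (-0.42) and MSM1 (-0.41). The ime4 arrays of MSM1 in SPO lay apart, at 6.58 and 6.22, and without replicate 2 of ime4 in SPO its difference was -0.22 (adjusted p = 0.0188). MSY1 read 7.56 and 7.57 in ime4 against 8.18, 8.09 and 8.11 in WT, and MSW1 7.01 and 7.12 against 7.51, 7.54 and 7.48. For neither gene did the genotypes overlap, which held for most tested probe sets in SPO (2005 higher and 2350 lower of 5359). SLM5, at 0.19, was higher past the threshold in 7 of 16 alternatives, with the lowest adjusted p (0.0173) without WT replicate 1 in SPO, and MST1 was with centred arrays (adjusted p = 0.0339). MSK1 was lower past the threshold in 4 of 16 alternatives, for example without either WT array in YPD (adjusted p = 0.0399 each), and MSR1 with quantile normalization (adjusted p = 0.0214). In all 12 pairs the ime4 against WT difference in SPO was higher for the cytosolic than for the mitochondrial gene, with a median gap of 1.02 and with no test of the gap.

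**Figure D4:**
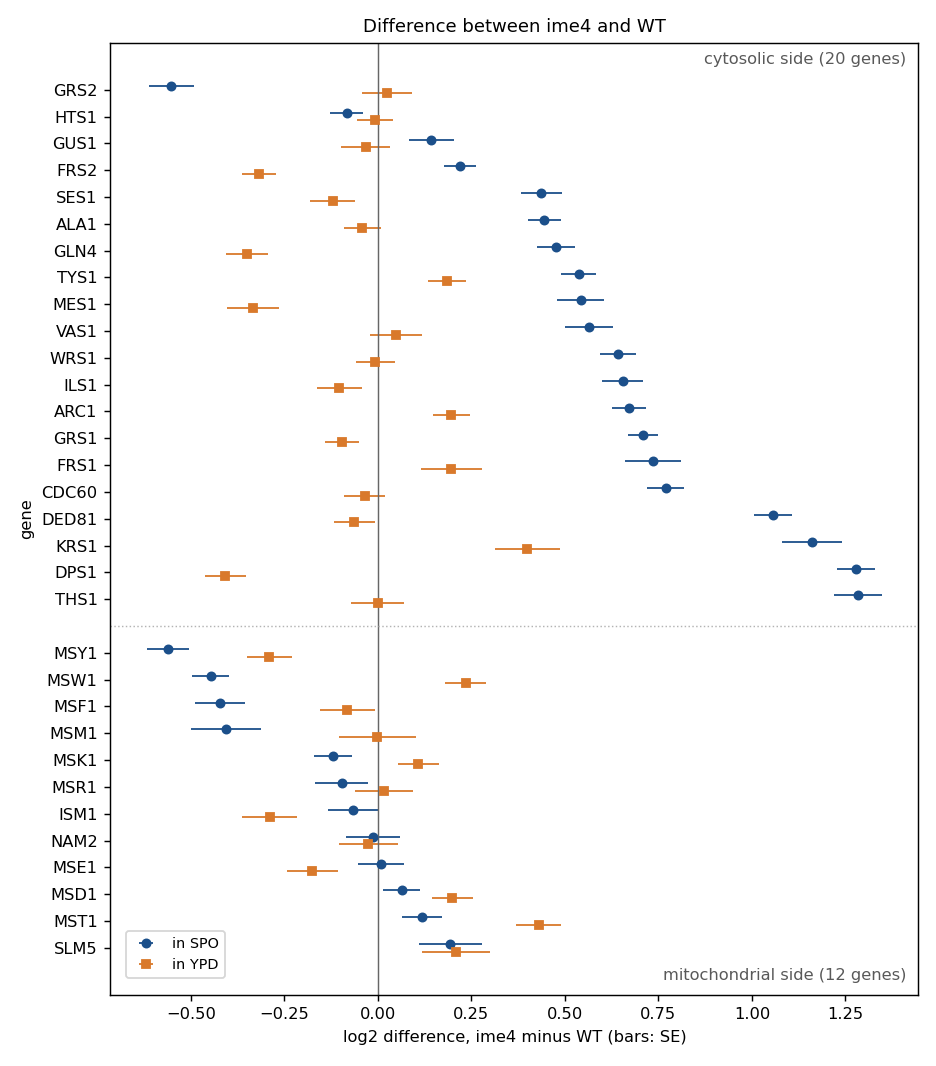
Log2 difference between ime4 and WT for the same genes in SPO (circles) and in YPD (squares), with bars for the SE. In SPO the cytosolic genes other than GRS2 and HTS1 lie above 0, up to 1.28 for THS1 and DPS1, and the mitochondrial genes lie between -0.56 and 0.19. In YPD all members lie between -0.41 and 0.43.

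In YPD the genotypes differed less. Of the cytosolic genes 3 were higher in ime4 and 4 lower, with 13 not passing and a median of -0.03. Of the mitochondrial genes 3 were higher and 2 lower, with 7 not passing and a median of 0.01. Over all tested probe sets 21.3% were higher and 18.7% lower, with a median of 0.02, and no member differed by 2-fold. The counts of both sides in YPD are near these shares. The lower cytosolic genes were DPS1 (-0.41), GLN4 (-0.35), MES1 (-0.34) and FRS2 (-0.32). FRS2 read 9.65 and 9.61 in ime4 against 9.93 and 9.97 in WT (adjusted p = 0.000711), while FRS1, the other subunit, read 11.50 and 11.44 against 11.16 and 11.39 and did not pass (0.20, adjusted p = 0.0877). FRS1 passed without WT replicate 2 (adjusted p = 0.0194) and with an intensity trend (adjusted p = 0.0321).

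The higher cytosolic genes in YPD were KRS1 (0.40), ARC1 (0.20) and TYS1 (0.19). MST1 was the most raised mitochondrial gene, at 7.60 and 7.47 in ime4 against 7.12 and 7.10 in WT (0.43, adjusted p = 0.000502), with MSW1 at 0.23 and MSD1 at 0.20. MSY1 and ISM1 were lower, each at -0.29. With 2 arrays in each group, 5 of these calls were lost when either of 2 arrays was left out, a step that leaves 1 array in a group, while the differences kept most of their size. Without WT replicate 1 the values were 0.15 for TYS1 (adjusted p = 0.102), 0.19 for ARC1 (0.0534), 0.15 for MSD1 (0.108), 0.20 for MSW1 (0.055) and -0.22 for ISM1 (0.0862). Without ime4 replicate 1 it was 0.0912 for TYS1, 0.0839 for MSD1 and 0.0539 for MSW1, and without ime4 replicate 2 it was 0.0566 for ARC1 and 0.0747 for ISM1. SES1 passed only without WT replicate 1 (adjusted p = 0.0428). SLM5 passed without WT replicate 3 in SPO (adjusted p = 0.0482), and MSE1 without the dimmest probe sets (adjusted p = 0.0401) and with the offset (adjusted p = 0.045).

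Synthetase genes outside the member list were measured too. The arginyl gene YDR341C and the prolyl gene YHR020W, both cytosolic, changed in WT by -1.92 and -2.25 and in ime4 by -0.77 and -1.36, with positive interactions of 1.15 and 0.89. The mitochondrial prolyl gene AIM10 fell by 0.94 in WT and by 1.05 in ime4, and its interaction did not pass (-0.12, adjusted p = 0.37). The mitochondrion has no glutaminyl synthetase and makes this charged tRNA by amidation. Of the 3 subunit genes of the amidotransferase, PET112 and GTF1 rose in WT (0.81 and 0.54) and HER2 fell by 0.93. Over all tested probe sets 46.9% rose and 43.1% fell in WT. In ime4 PET112 (0.15, adjusted p = 0.0903) and GTF1 (-0.05, adjusted p = 0.604) did not pass, and HER2 fell by 0.40. The interaction passed for each, at -0.66 for PET112, -0.59 for GTF1 and 0.52 for HER2.

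Lists of genes that make tRNAs and that sense uncharged tRNA are given beside the shares over all tested probe sets, of which 43.1% fell and 46.9% rose in WT. Of 22 measured genes of RNA polymerase III and its factors 14 fell and 7 rose (median -1.48), among them RPC40 and RPC19, subunits shared with RNA polymerase I, which fell by 3.33 and 3.18. The interaction was positive for 11 and negative for 3, against 29.5% and 34.6% of all probe sets. Of 10 genes of tRNA processing and export 9 fell and 1 rose (median -1.07), among them the tRNA 3' end endonuclease gene TRZ1, which fell by 3.05, and LHP1, which encodes the yeast La protein, by 2.36. For this list the interaction was positive for 5 genes and negative for 1, beside the same shares of all probe sets. In the GCN pathway, which lowers translation initiation and raises GCN4 synthesis when uncharged tRNA accumulates, 4 of 6 genes fell and 2 rose. GCN3, a subunit of initiation factor eIF2B, and YIH1, an inhibitor of Gcn2 activation, each fell by 1.51. The transcript of the activator GCN4 rose by 0.30 in WT and did not pass in ime4 (0.06, adjusted p = 0.266).

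Of 9 genes for cytosolic elongation factors, which work beside the charged tRNAs, 6 fell and 2 rose in WT (median -0.56), against 43.1% and 46.9% of all probe sets. YEF3, which encodes elongation factor 3, fell by 1.97, and its paralog HEF3 rose by 4.22, so that this pair, like GRS1 and GRS2, had opposite signs. Of 11 mitochondrial translation factor genes 5 fell and 4 rose in WT (median -0.05), and 6 fell and 3 rose in ime4, where 42% and 44% of all probe sets did. The WT counts of these 11 genes are near the shares of the whole array. The elongation factor gene MEF1 fell by 1.77 and MTG1, which encodes a GTPase of mitochondrial ribosome assembly, rose by 1.45. In SPO none of the 11 was higher in ime4 and 7 were lower, with a median of -0.31, against 34.1% higher and 39.4% lower over all probe sets.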

How the data were processed

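The deposited table holds 1 intensity per probe set and array on a linear scale. Per the submitters' processing notes these intensities come from RMA, run with software and settings that those notes do not name. RMA brings all arrays to a common distribution, so a shift shared by all transcripts would not be seen. The log2 of each intensity was taken with no offset. Of 9676 probe sets, 5359 matched a Saccharomyces cerevisiae gene through the gene identifier of the array annotation and the RefSeq table of assembly R64. Another 1413 had a gene name but no such match, and were taken to belong to another species. The 95th percentile of the latter gave the background level of each array. The 2904 with no gene name were left out.

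The means of the 4 groups were estimated together from the 9 arrays by limma 3.58.1 under R 4.3.3, with moderated two-sided tests from eBayes. The fit has 5 residual and 4.07 prior degrees of freedom. The procedure was first tested on simulated data, with normal noise of the fitted spread and shifts added to ime4 in SPO. Shifts of 0.25 log2 were called in 50% of cases and shifts of 0.5 in 98%. A difference near 0.25 that did not pass may thus have been missed. Sides and lists were described by counts and medians, with no test. All members are named, and from each other list the 2 genes with the smallest p in WT were named. AIM10, GTF1, GCN4 and the genes of the RNA polymerase III list that rose in WT were added after their values were seen. The members and lists were chosen with earlier results of these data known. Alternatives were quantile normalization, median centring, leaving out the dimmest 25% of probe sets, an offset of 16, an intensity trend, array weights, the replicate number as a block and leaving out each array.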

Additional observations from a re-analysis of the deposited data

Results flagged for a closer look

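By the limma interaction test adjusted over all tested probe sets, 24 of 32 members responded to the medium differently in ime4 and in WT. Such a call was made for 3433 of 5359 tested probe sets. The calls of KRS1, MSF1, MSK1, MSM1 and MSY1 were lost in some of the 16 alternatives. Values are the ime4 response minus the WT response on the log2 scale, and no group has enough arrays for a test of single outlying arrays. The cytosolic genes with positive values were DPS1 at 1.69, THS1 at 1.28, DED81 at 1.12, MES1 at 0.88, GLN4 at 0.83, GRS1 at 0.81, CDC60 at 0.80, ILS1 at 0.76, KRS1 at 0.76, WRS1 at 0.65, SES1 at 0.56, FRS1 at 0.54, FRS2 at 0.54, VAS1 at 0.52, ALA1 at 0.49, ARC1 at 0.48 and TYS1 at 0.35. Their adjusted p ranged from 4.01e-07 (DPS1) to 0.0023 (FRS1). The negative values were -0.58 for GRS2, -0.68 for MSW1, -0.40 for MSM1, -0.34 for MSF1, -0.31 for MST1, -0.27 for MSY1 and -0.23 for MSK1, with adjusted p from 4.36e-05 (MSW1) to 0.0292 (MSM1).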

How the results depend on the processing

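No member reversed its direction past the threshold under any of the 16 alternatives, and the counts of the medium comparisons stayed within 1.5 times. Centring each array on its median moved the median of all tested probe sets in the WT medium comparison from 0.05 to -0.05. In SPO, quantile normalization made the cytosolic genes lower in ime4 2. The mitochondrial genes higher in ime4 in SPO were 0, and 2 with centring, 1 each without the dimmest 25%, with the offset, with the intensity trend and with array weights, and 0 to 1 without any 1 array. For the interaction, the positive mitochondrial genes were 2 with centring, 1 each without the dimmest 25% and with the offset, and 0 to 1 without any 1 array, and the negative ones 3 with centring and 2 to 7 without any 1 array. In YPD, leaving out any 1 array gave 1 to 4 cytosolic and 1 to 4 mitochondrial genes higher in ime4, and 1 to 2 mitochondrial genes lower. A fit that leaves 1 array in a group assumes that it varies like the other groups. Apart from gains or losses that follow from fewer arrays or genes tested, the cause was not tested. Same-numbered arrays did not deviate together (correlations from -0.02 to 0.031), so no pairing by number was seen. In groups of 2 arrays the deviations mirror each other, and the check cannot show that the samples were unpaired. With the replicate block 23 in place of 24 members passed for the interaction (MSK1 did not, adjusted p = 0.0569), and the member counts of the other comparisons were the same. KRS1 is among the dimmest 25% of probe sets and has no value there. Every member has 1 probe set, so no other choice of probe set could be tried.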

Other observations

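The genes whose values over the 9 arrays were most like those of GRS2 were ESBP6 (Pearson r = 0.997), YUR1 (0.993) and ATP17 (0.992), out of 5311 genes. These arrays fall into 4 groups, so the correlations mostly describe group means, and they are given with no test.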
